A study of Mus musculus with 2 samples.

Results

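The genes described here are the cadherins and the non-clustered protocadherins, taken from the GENCODE M21 annotation as protein-coding genes whose symbol is Cdh or Pcdh followed only by a number (with a final x allowed), together with Celsr1, Celsr2 and Celsr3. The rule found 38 genes of 21938 protein-coding genes. Their open chromatin was read from DNase-seq of left cerebral cortex of male B6CASTF1/J mice aged 2 months, in which each autosomal gene has a C57BL/6J and a CAST/EiJ allele. A single group of 2 biological replicates was measured, with no treatment named and no second tissue, so values are set against those of all protein-coding genes in the same libraries and no test between groups exists. DNase I cuts DNA that nucleosomes do not cover, a peak is a stretch with many cuts, and a footprint is a short stretch inside an open site that is cut less than its surroundings.

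Cadherins are membrane proteins that bind their like on a neighbouring cell through calcium-dependent extracellular repeats. The classical cadherins, type I and type II, hold the catenins on the inside of the membrane and so link adhesion to actin, while the delta-protocadherins use other cytoplasmic partners and contribute to the sorting and wiring of neurons. The Celsr genes encode large cadherins with a membrane domain like that of G protein-coupled receptors, which act in planar cell polarity and axon tract formation. In brain, different regions and neuron classes use different sets of these genes.

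Replicate 1 had 63928 peaks and replicate 2 had 76440, and 44745 regions were shared by peaks of both. Peak height is the authors' own signal value, with a scaling not given in the sources used, and the sequencing depth is unknown. Promoters of neuronal markers were open in both replicates for 4 of 5 genes, of excitatory neuron markers for 2 of 4, of inhibitory neuron markers for 0 of 3, of astrocyte markers for 3 of 4 and of oligodendrocyte markers for 2 of 3. The excitatory markers Slc17a7 and Tbr1 and the inhibitory markers Gad1, Gad2 and Slc32a1 had a promoter peak in replicate 1 only. None of the 3 microglial, 3 endothelial, 4 epithelial, 3 muscle or 2 liver markers had a promoter peak in either replicate, and 1 of 3 fibroblast markers (Col1a1) had one in both. Each replicate also has a longer peak list that holds weaker peaks. In these lists all 5 neuronal, 4 excitatory, 3 inhibitory and 4 astrocyte markers had a promoter peak in both replicates. So did 2 oligodendrocyte and 2 fibroblast markers, and none of the microglial, endothelial, epithelial, muscle or liver ones. All values are of whole tissue, where an open site in few cells and a weaker site in many cells cannot be told apart.

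Promoters were read within 500 bp of every transcription start site (TSS) that the annotation gives a gene, and a gene counted as accessible when both replicates had a peak in that window at one of its TSSs. Of the 38 cadherin genes, 26 were accessible in both replicates (68.4%), against 56.2% of all protein-coding genes. A further 5 had a promoter peak in replicate 1 only, and 7 had none in either. Within these windows the open promoters were low ones. The median height of the 26 was 1.43 (geometric mean of both replicates), against 2.80 over the 12324 accessible genes, and 4 of the 26 stood above that median. The all-gene median is not matched for CpG content or locus length, which are set beside height further below. By replicate, the cadherin median was 1.85 in replicate 1 and 1.07 in replicate 2, against 3.73 and 2.11 over all accessible genes. In the order of heights of all accessible genes, 16 of the 26 lay below percentile 25 (a height of 1.58) and 3 above percentile 75 (4.47). Shared regions 500 to 2000 bp from the nearest TSS were counted neither here nor among the distal regions described below. Some were taller than the promoter peak of their gene, as at Pcdh1, Pcdh7, Pcdh15 and Cdh10. Others were lower, as at Pcdh10, Pcdh17 and Celsr3. With windows of 2000 bp the cadherin median was 1.60, and that over all genes was not computed.

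**Figure D1:**
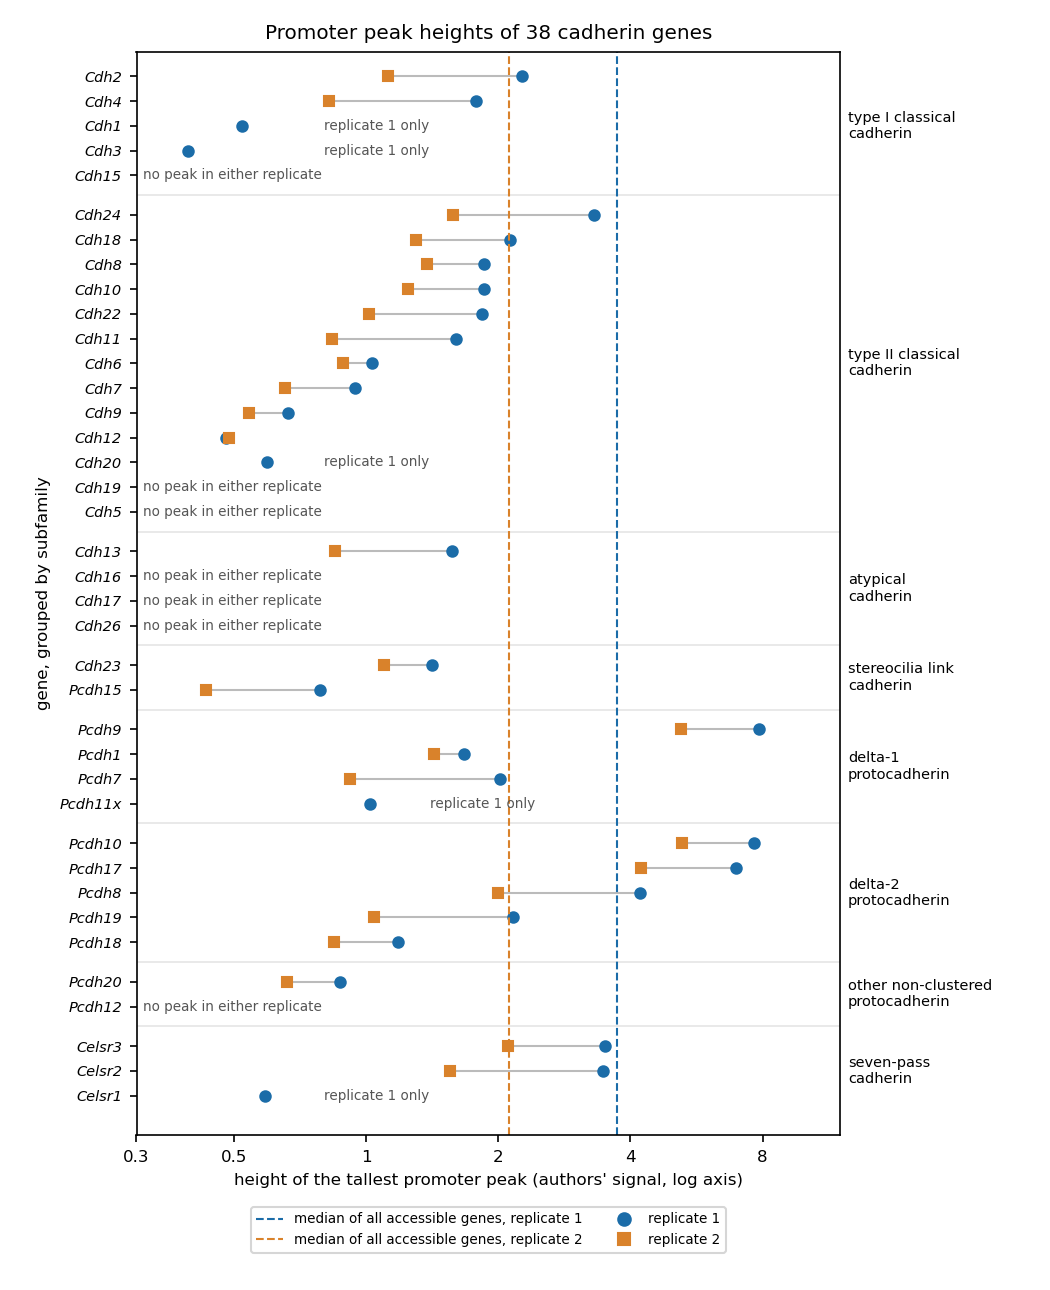
Height of the tallest promoter peak (authors' signal, log axis) of each of the 38 genes in replicate 1 (circles) and replicate 2 (squares), by subfamily, with dashed lines at the medians of all accessible genes in each replicate (3.73 and 2.11). Pcdh9, Pcdh10 and Pcdh17 stand to the right of both lines with both of their values, 7 genes have no peak, and 5 have a peak in replicate 1 only.

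The 3 tallest cadherin promoters belong to delta-protocadherins, and their sequences are shown because they carry the strongest open chromatin of the family. Each is the 300-base window centred on the region shared by both replicates, read 5′ to 3′ on the strand of the gene from the GRCm38.p6 reference, with capitals on the bases that lie in a footprint of both replicates. The reference is the C57BL/6J sequence, so CAST/EiJ differences are not shown. The Pcdh9 window is chr14:93890691-93890990 on the minus strand, just upstream of the 5′-most TSS. The Pcdh10 window is chr3:45378161-45378460 and the Pcdh17 window chr14:84443321-84443620, both on the plus strand and across the 5′-most TSS.
Pcdh9: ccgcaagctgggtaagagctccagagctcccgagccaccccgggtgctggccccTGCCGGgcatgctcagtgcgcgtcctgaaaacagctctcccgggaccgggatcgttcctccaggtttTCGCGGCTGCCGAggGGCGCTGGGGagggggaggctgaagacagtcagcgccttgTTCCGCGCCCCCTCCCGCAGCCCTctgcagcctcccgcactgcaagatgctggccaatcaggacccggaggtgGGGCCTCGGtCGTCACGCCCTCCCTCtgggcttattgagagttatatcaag
Pcdh10: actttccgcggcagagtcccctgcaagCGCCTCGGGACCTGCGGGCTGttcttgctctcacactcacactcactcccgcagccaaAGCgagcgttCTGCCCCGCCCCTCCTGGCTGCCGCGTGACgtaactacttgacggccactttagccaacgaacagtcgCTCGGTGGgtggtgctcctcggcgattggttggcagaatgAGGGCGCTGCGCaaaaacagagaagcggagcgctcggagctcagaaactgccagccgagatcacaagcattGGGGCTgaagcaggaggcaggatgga
Pcdh17: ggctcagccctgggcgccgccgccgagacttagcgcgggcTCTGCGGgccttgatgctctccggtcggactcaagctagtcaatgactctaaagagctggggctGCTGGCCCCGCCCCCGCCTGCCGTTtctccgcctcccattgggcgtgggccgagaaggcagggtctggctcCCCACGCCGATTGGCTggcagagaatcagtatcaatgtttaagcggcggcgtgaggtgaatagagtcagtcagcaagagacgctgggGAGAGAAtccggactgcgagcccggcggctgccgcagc
Footprints of both replicates covered 78 bases of the Pcdh9 window, 80 of the Pcdh10 window and 55 of the Pcdh17 window. A GC box, GGGCGG on either strand and the core of the site bound by SP-type factors, lay inside such a footprint in the Pcdh10 window, starting at base 101, and in the Pcdh17 window, starting at base 112. The Pcdh9 window held no GC box in these letters.

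All 5 delta-2 protocadherins had an accessible promoter, as did 3 of the 4 delta-1 protocadherins. Pcdh10, a delta-2 protocadherin of axon pathways, had a height of 7.64 in replicate 1 and 5.23 in replicate 2. Pcdh17, which acts at synapses of cortex and basal ganglia, had 6.94 and 4.23. Both exceeded the all-gene medians in each replicate. Pcdh8, also called arcadlin and induced by activity in rat neurons, had 4.20 in replicate 1, above the all-gene median, and 1.99 in replicate 2, below it. Pcdh19, an X-linked gene whose human mutations cause epilepsy mainly in females, had 2.16 and 1.04, and Pcdh18 had 1.18 and 0.844. The delta-2 promoters thus spanned geometric means of 0.999 to 6.32. Male mice carry a single X, and no correction for it was made here.

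Among the delta-1 genes, Pcdh9 had the tallest cadherin promoter, with 7.86 in replicate 1 and 5.23 in replicate 2, which places it at percentile 91.2 of accessible promoters. Pcdh7 had 2.02 and 0.918, from different regions within its first 2.16 kb, and its 5′-most TSS had 1.55 and 0.918. A shared region 1.89 kb upstream of that TSS, outside the window, had 2.81 and 1.55. Pcdh1 had 1.67 and 1.42, but these 2 values come from different TSSs. Within 500 bp, the 5′-most TSS of Pcdh1 had a peak in replicate 1 only. The TSS group 8.21 kb further in had 1.25 in replicate 1 and 1.42 in replicate 2. A taller shared region, with 3.89 and 2.49, lay 0.728 kb upstream of the 5′-most TSS, outside the window. The X-linked Pcdh11x had a height of 1.02 in replicate 1 and lacked a peak in replicate 2. Pcdh20, outside the delta groups, was accessible at 0.872 and 0.662. Pcdh12, a protocadherin of vessel endothelium, had no promoter peak.

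Type II classical cadherins were open at 10 of 13 promoters and all of them were low within the 500 bp windows, with geometric means of 0.483 to 2.28. The highest was Cdh24, with 3.31 in replicate 1 and 1.57 in replicate 2. Cdh8, Cdh10 and Cdh22 shared nearly the same level. Cdh8, a synaptic cadherin of cortical circuits, had 1.85 and 1.38, Cdh10 had 1.85 and 1.24, and Cdh22 had 1.84 and 1.01. A shared region 1.11 kb from a Cdh10 TSS, outside the window, was taller, with 4.08 and 2.86. Cdh11 had 1.60 and 0.837, Cdh6 had 1.03 and 0.885, and Cdh7 had 0.941 and 0.655. Cdh9, which acts at mossy fibre synapses of the hippocampus, had 0.665 and 0.540. Cdh20 had 0.596 in replicate 1 alone, and Cdh5 (VE-cadherin of endothelium) and Cdh19 (a cadherin of the Schwann cell lineage) had no peak.

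Of the 5 type I cadherins, 2 were accessible in both replicates. Cdh2, the N-cadherin of neural tissue, had 2.27 in replicate 1 and 1.12 in replicate 2, and Cdh4, the R-cadherin first described in retina, had 1.78 and 0.824. Cdh1, the E-cadherin of epithelia, and Cdh3, the P-cadherin first described in placenta, had 0.522 and 0.393 in replicate 1 and no peak in replicate 2. Cdh15, the M-cadherin of muscle, had none. Of the 4 atypical cadherins, Cdh13, a cadherin anchored in the membrane by a lipid, had 1.57 and 0.851, while Cdh16 of kidney, Cdh17 of liver and intestine and Cdh26 of epithelia had no peak. Celsr3 had 3.51 and 2.11 and Celsr2 had 3.47 and 1.55. Celsr1 had 0.587 in replicate 1 only. Cdh23 and Pcdh15, which together form the tip link of hair cells in the inner ear, were both accessible. The heights were 1.41 and 1.10 for Cdh23 and 0.786 and 0.432 for Pcdh15, whose values come from TSSs 723 kb apart. A shared region 0.982 kb upstream of the 5′-most Pcdh15 TSS, outside the window, was taller, with 2.50 and 1.42.

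The 26 promoters were lower in replicate 2 in 25 cases, the exception being Cdh12 with 0.479 in replicate 1 and 0.486 in replicate 2. The median log2 ratio, replicate 2 over replicate 1, was -0.71 over the 26, and -0.77 over all accessible genes. Over all accessible genes the ratio was still negative at percentile 95 (-0.0082), so a like share of them was lower in replicate 2. Heights of the 26 kept much the same order in both replicates (Spearman correlation across genes 0.912, and 0.926 across all accessible genes; genes are not independent and no p is given). The longer peak lists, which hold weaker peaks, gave 29 accessible cadherin genes, against 61.0% of all genes, by adding Cdh1, Celsr1 and Pcdh11x.

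The 12 genes without a peak in both replicates differed in how little signal they had. The deposited track of false discovery rates lists bases whose cut rate passed 0.05. In Cdh16, Cdh17, Cdh26 and Pcdh12, 0 bases of the promoter windows were listed in either replicate. Pcdh11x had 880 listed bases in replicate 1 and 368 in replicate 2, Cdh3 had 344 and 35, Cdh1 had 277 and 56, Celsr1 had 253 and 3, and Cdh15 had 191 and 13. Cdh20 had 640 in replicate 1 and 0 in replicate 2, while Cdh19 and Cdh5 had 0 in replicate 1 and 159 and 68 in replicate 2. So 5 of the 12 had listed bases in both replicates. The same share over all genes without an accessible promoter is not given here, so whether this count is usual is unknown. Windows with more TSSs are also longer. The endothelial markers Cldn5, Pecam1 and Tek had no promoter peak either, beside Cdh5 and Pcdh12, and the epithelial markers Epcam, Krt8, Krt18 and Cldn4 had none, beside Cdh16, Cdh17 and Cdh26. The epithelial Cdh1, by contrast, had its peak in replicate 1 and listed bases in both, and Cdh3 likewise. These genes also differ in CpG content, described below. In the CpG bins of Cdh5, Pcdh12, Cdh16, Cdh17 and Cdh26, 6.65% to 21.2% of all genes were accessible. In those of Cdh1 and Cdh3 it was 86.9% and 65.1%. Whether cell type or CpG content goes with the missing peaks was not tested.

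Cdh18, Cdh23 and Pcdh1 had peaks of both replicates within 500 bp of internal starts but not of the first TSS. Cdh12, Pcdh15 and Celsr3 had openings at a non-coding first start or at a second, internal one. Cdh4 and Pcdh7 were open at the first start and at others near it. In Cdh4 this was a non-coding start 1.80 kb further in (1.70 and 0.763), and in Pcdh7 these were starts 1.13 and 2.16 kb further in. Cdh18 had no peak at its 5′-most TSS. Its tallest promoter peak, 2.13 in replicate 1 and 1.30 in replicate 2, lay at a TSS 487 kb into the gene at which protein-coding transcripts begin, and a lower shared region (0.574 and 0.560) lay beside it at the same TSS. Cdh12 had its shared peak at the 5′-most TSS, which the annotation gives to a processed transcript without a coding sequence, and the antisense gene Gm49685 starts within 1000 bp of it. Without strand in the data, an opening of the antisense gene and one of Cdh12 cannot be told apart. The same limit holds for 8 other accessible genes with the start of another gene within 1000 bp, namely Pcdh1, Pcdh7, Pcdh10, Pcdh19, Celsr3, Cdh8, Cdh10 and Cdh24, the last beside the coding gene Gm17606. Cdh23 had shared peaks at 3 TSSs of non-coding transcripts, 9.23, 290 and 391 kb into the gene, and none within 500 bp of a coding TSS. A shared region of 1.07 and 0.473 lay 0.591 kb upstream of its 5′-most TSS, just outside that window. Pcdh15 had shared peaks at its 5′-most TSS, annotated as a retained intron (0.786 and 0.425), and at a coding TSS 723 kb further in (0.768 and 0.432). Celsr3 had a second open start 16.3 kb into the gene, with 0.976 and 0.547. With TSSs of coding transcripts alone, a definition added after the data were seen, 24 cadherin genes were accessible, without Cdh12 and Cdh23, and 54.6% of all genes.

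The windows of the internal Cdh18 start, chr15:23036261-23036560, and of the first Cdh12 start, chr15:20448922-20449221, both on the plus strand, are shown because they set an opening at a coding start deep in a gene beside one at a non-coding first exon. Capitals again mark bases in a footprint of both replicates.
Cdh18: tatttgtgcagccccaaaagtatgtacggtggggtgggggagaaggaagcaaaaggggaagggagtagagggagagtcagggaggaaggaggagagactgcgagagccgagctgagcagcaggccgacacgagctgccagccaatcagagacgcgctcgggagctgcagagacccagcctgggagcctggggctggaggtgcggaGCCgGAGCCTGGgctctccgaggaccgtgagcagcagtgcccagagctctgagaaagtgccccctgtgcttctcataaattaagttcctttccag
Cdh12: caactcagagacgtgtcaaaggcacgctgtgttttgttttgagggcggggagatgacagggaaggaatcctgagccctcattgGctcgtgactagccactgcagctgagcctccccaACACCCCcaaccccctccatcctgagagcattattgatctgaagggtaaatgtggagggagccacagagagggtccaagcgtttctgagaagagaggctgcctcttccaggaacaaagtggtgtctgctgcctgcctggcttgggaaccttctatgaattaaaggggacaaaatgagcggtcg
In these windows 11 bases of Cdh18 and 8 of Cdh12 lay in a footprint of both replicates, far fewer than in the 3 tall protocadherin promoters. Footprints of a single replicate covered 77 bases in replicate 1 and 23 in replicate 2 at Cdh18, and 38 and 14 at Cdh12. The peaks at Cdh18 and Cdh12 were also much lower, and whether height goes with the number of such bases was not tested. The Cdh12 window held a GC box from base 43 and an E-box CAGCTG from base 102, neither in such a footprint, and the Cdh18 window matched none of the 11 motifs searched.

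CpG dinucleotides, which mark promoters of broadly used and developmental genes, were measured as observed over expected in the 500 bp on both sides of the 5′-most TSS. The cadherin genes had a median of 0.637, against 0.552 over all genes. If each gene were accessible as often as all genes in its 1 of 20 bins of CpG content, 24.2 of the 38 would be expected, beside the 26 found. In the lower 10 bins, 8 of 17 cadherin genes were accessible, against 25.0% of all genes, but the 17 were not spread evenly over these bins. Of them, 5 lay in bin 10, where 65.1% of all genes were accessible, and 2 in bin 9, where 51.7% were. The rest lay in bins where it was 36.9% or less, so the 25.0% is not matched to the 17. In addition, Cdh18, Cdh12 and Cdh23 in these bins owe their accessibility to starts other than a coding 5′-most one. In bins 11 to 15 the count was 13 of 15, against 82.5%, and in the top 5 bins 5 of 6, against 92.3%. For height, 22 of the 26 accessible cadherin promoters were below the median height of accessible genes in their own CpG bin. Likewise 22 of the 26 were below the median of accessible genes in their own 1 of 20 bins of locus length. Over the 26, the median of these bin medians was 3.04 for CpG content and 2.11 for locus length. Beside these stood 1.43 for the cadherin promoters and 2.80 for all accessible genes. In the longest bin of locus length, which held 13 of the 38 genes, the median of accessible genes was 1.66.

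**Figure D2:**
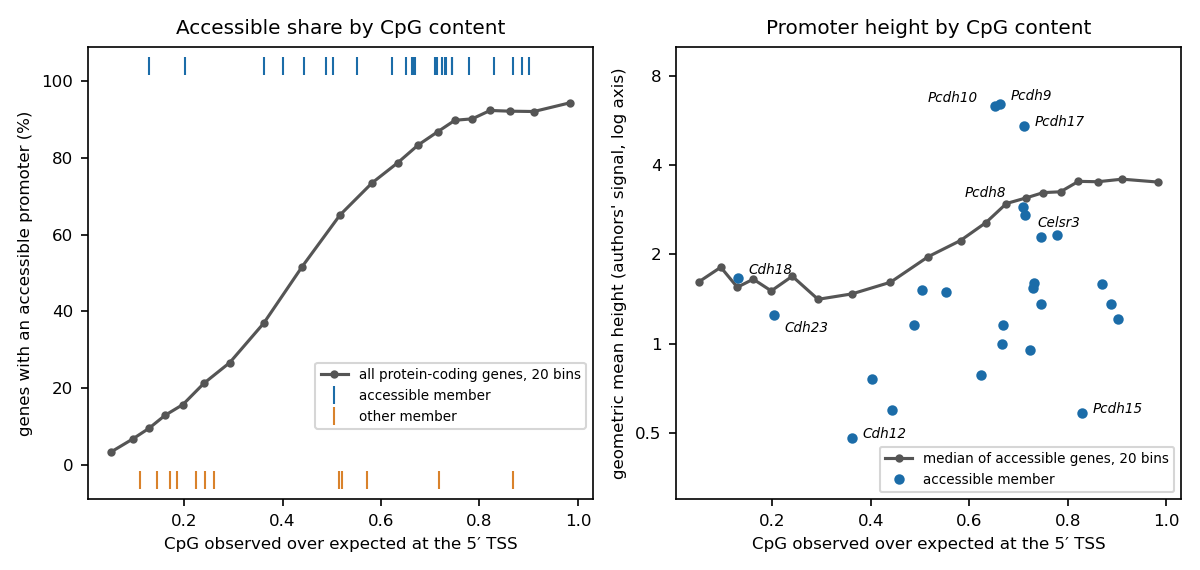
Left, share of all protein-coding genes with an accessible promoter (line, 20 bins of CpG observed over expected), with ticks at the top for the 26 accessible cadherin genes and at the bottom for the other 12. Right, promoter height (geometric mean, log axis) of the 26 against the median of accessible genes in each bin, where 22 of the 26 points lie below their bin's median and Pcdh9, Pcdh10 and Pcdh17 lie above.

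Each of the 26 accessible promoters held a footprint in both replicates, as did 98.8% of accessible genes, and 25 held one that overlapped between replicates, against 94.7%. The exception was Pcdh19, with 13 footprints in replicate 1 and 3 in replicate 2. The median number per promoter window was 9 in replicate 1 and 7 in replicate 2, against 8 and 6 over all accessible genes. Footprints shared by overlap had a median of 2, against 3. Pcdh7 had the most, with 8 shared ones, and Pcdh9 and Pcdh10 had 7 each. A window with several TSSs is longer, which raises its count.

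Of the 39 shared regions at cadherin promoters, 22 held a GC box (56.4%), against 62.7% of the 16646 shared promoter regions. The E-box CAGCTG, a site of basic helix-loop-helix factors, was found in 11 (28.2%), against 17.9%. AP-1 (TGANTCA) and CRE (TGACGTCA), the sites of activity-regulated FOS/JUN and CREB factors, were found in 0 of 39, against 5.23% and 3.44%, and the CTCF core (CNAGGNGGC) in 2 (5.13%), against 14.4%. Motifs were searched on both strands in a 300-base window centred on the region. A GC box can overlap the EGR motif, GTGGGCG. With 39 regions, these shares move by several percent with a single region, and a match is not a bound site.

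Distal regions lay more than 2000 bp from every annotated TSS, and each locus ran from 20 kb before to 20 kb after the gene. The cadherin loci held 84 distal regions shared by both replicates, in 26 of the 38 loci, against 46.7% of all genes with at least 1. The mean was 2.21 per locus, against 0.993 over all genes, but cadherin loci are long, with a median of 155 kb against 57.4 kb. Over the genes of the same 1 of 20 bins of locus length the mean was 2.37, and 14 of the 38 held more than their bin's mean, against 37.7% of all genes. With the 200 genes nearest in length, a comparison added after the data were seen, the mean was 2.72.

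**Figure D3:**
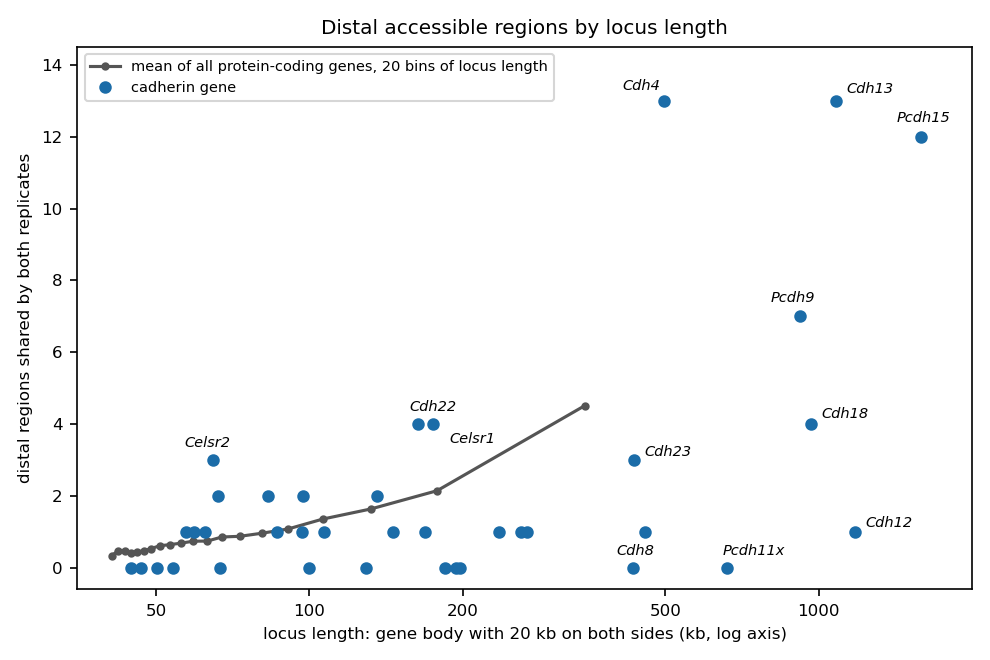
Number of distal regions shared by both replicates in the locus of each of the 38 genes against locus length (kb, log axis), with the mean of all protein-coding genes in 20 bins of locus length as a line. Cdh4, Cdh13 and Pcdh15 hold 12 or 13 regions, while Cdh12 holds 1 in 1180 kb and Pcdh11x and Cdh8 hold 0.

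The distal regions were concentrated in few genes. Cdh4 and Cdh13 held 13 each and Pcdh15 held 12, together 45.2% of the 84. Without these 3, left out after their counts were seen, the mean was 1.31. The bin means keep their own genes with most regions, so the 1.31 cannot be set against them. Cdh4 held its 13 in a locus of 497 kb, or 2.62 per 100 kb, and had more than 95.8% of the genes in the longest bin. Cdh13 had 1.20 per 100 kb and Pcdh15 had 0.755 per 100 kb in a locus of 1590 kb. Pcdh9 had 7 regions, Cdh18, Cdh22 and Celsr1 had 4 each, and Cdh23 and Celsr2 had 3 each. Celsr2 had 4.64 per 100 kb in a locus of 64.7 kb, the densest of the 38. Cdh5, Pcdh1, Pcdh10 and Pcdh17 had 2 each, and 13 genes had 1.

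No distal region was found in 12 loci, those of Cdh6, Cdh7, Cdh8, Cdh11, Cdh17, Cdh19, Cdh24, Celsr3, Pcdh8, Pcdh11x, Pcdh18 and Pcdh20. Among the long genes, Cdh12 (1140 kb) held 1 and Cdh8 (392 kb) and Pcdh11x (620 kb) held 0, so genes of similar length in the same family ranged between 0 and 13. The Spearman correlation between promoter height and distal count was 0.0904 over the 26 genes, which share their libraries, as a description. Between locus length and distal count it was 0.389 over the 38 genes and 0.396 over all genes.

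**Figure D4:**
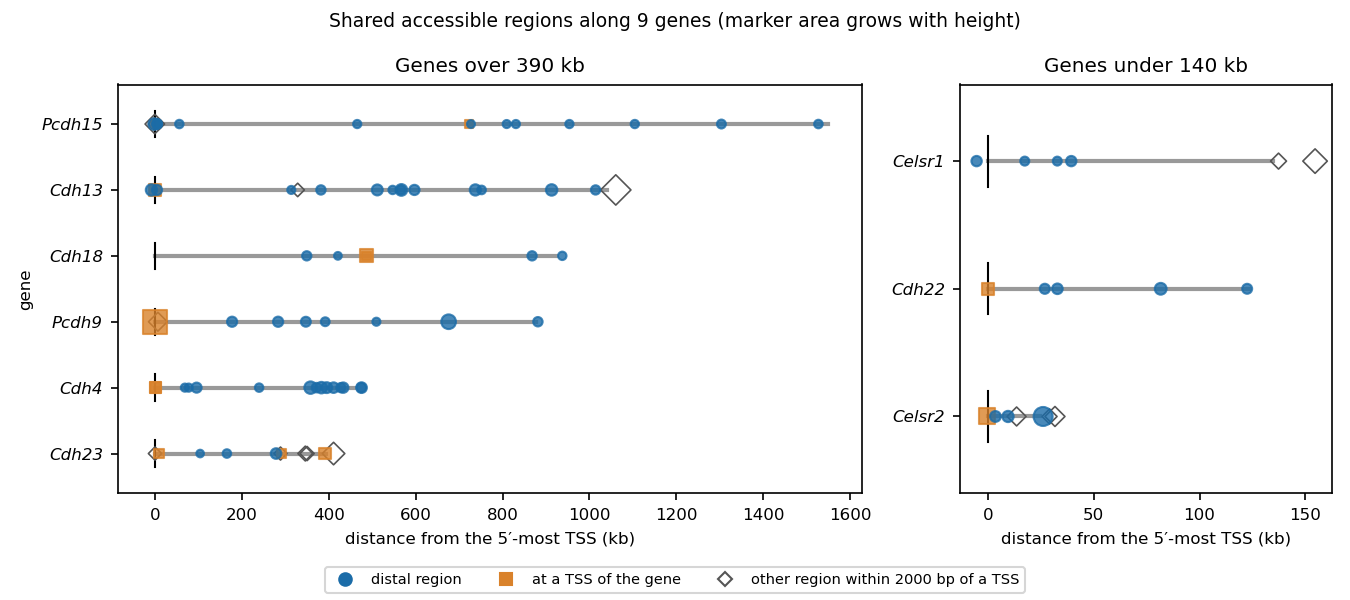
Shared accessible regions along the 9 genes with 3 or more distal regions, by distance from the 5′-most TSS in kb, with the gene body as a bar and marker area growing with height. Distal regions of Cdh4 gather between 358 and 475 kb, those of Cdh13 and Pcdh15 spread over the gene, and Cdh18 has its promoter regions 487 kb inside.

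By place, 63 of the 84 regions lay in an intron of the cadherin gene, 2 in an exon, 9 upstream and 10 downstream. The nearest coding TSS belonged to the cadherin gene for 77 of them. Their heights were like those of other distal regions, with a median geometric mean of 0.834, against 0.856 over the 23895 distal regions, and 38 of the 84 stood in the upper 50% of these. A footprint shared by both replicates was present in 66 (78.6%), against 81.3%. The GC content of the windows had a median of 50.2%, against 49.7%. In Cdh4, 9 of the 13 regions lay 358 to 475 kb from the 5′-most TSS, in introns of the 3′ part and past the end of the gene, and the last 2 of these were nearest to the TSS of Taf4, a subunit of the general transcription factor TFIID.

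The tallest distal region lay 26.2 kb from the start of Celsr2, downstream of its end, and 3.24 kb from the TSS of Psrc1, which encodes a spindle protein. Its heights were 4.84 in replicate 1 and 3.09 in replicate 2, at percentile 99.3 of distal regions. The next was upstream of Pcdh10, 2.45 kb from its 5′-most TSS, with 2.86 and 1.86. A region downstream of Pcdh1 followed with 2.47 and 2.05, and an intronic region of Pcdh9 with 2.65 and 1.80, which lay wholly in sequence that the reference marks as repeat. The region upstream of Cdh15 had 2.87 and 1.61 and the one in the last part of Cdh16 had 2.19 and 1.20, although neither gene had a promoter peak. The tallest region of Cdh4 had 1.48 and 1.51, a second one of Pcdh1 had 1.81 and 1.10, one downstream of Cdh5 had 2.09 and 0.885, and one in an intron of Cdh1 had 1.99 and 0.891. The other 74 distal regions were lower, with geometric means of 0.370 to 1.31.

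Distal windows shown here are the tallest one, at Celsr2 (chr3:108389251-108389550, minus strand), the one upstream of Pcdh10 (chr3:45375801-45376100, plus strand), and the tallest in each of the 2 genes with most regions, Cdh4 (chr2:179799911-179800210, plus strand) and Cdh13 (chr8:118850421-118850720, plus strand). Capitals mark bases in a footprint of both replicates.
Celsr2 distal: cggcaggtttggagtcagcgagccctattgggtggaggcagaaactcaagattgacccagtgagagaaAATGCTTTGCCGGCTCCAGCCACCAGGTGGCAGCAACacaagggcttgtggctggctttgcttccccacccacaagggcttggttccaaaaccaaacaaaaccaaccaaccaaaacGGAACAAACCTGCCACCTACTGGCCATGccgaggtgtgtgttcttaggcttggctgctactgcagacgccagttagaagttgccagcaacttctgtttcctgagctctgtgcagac
Pcdh10 distal: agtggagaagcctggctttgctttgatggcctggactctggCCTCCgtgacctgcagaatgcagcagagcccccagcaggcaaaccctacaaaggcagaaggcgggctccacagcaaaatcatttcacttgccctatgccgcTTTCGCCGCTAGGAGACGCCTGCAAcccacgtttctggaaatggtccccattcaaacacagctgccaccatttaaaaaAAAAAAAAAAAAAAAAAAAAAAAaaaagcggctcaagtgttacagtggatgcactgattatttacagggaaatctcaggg
Cdh4 distal: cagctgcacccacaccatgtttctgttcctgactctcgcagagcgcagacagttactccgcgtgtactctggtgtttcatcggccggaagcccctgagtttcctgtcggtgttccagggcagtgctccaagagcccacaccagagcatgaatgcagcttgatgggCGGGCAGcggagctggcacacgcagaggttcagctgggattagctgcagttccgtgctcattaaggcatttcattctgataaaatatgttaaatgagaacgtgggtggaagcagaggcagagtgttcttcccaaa
Cdh13 distal: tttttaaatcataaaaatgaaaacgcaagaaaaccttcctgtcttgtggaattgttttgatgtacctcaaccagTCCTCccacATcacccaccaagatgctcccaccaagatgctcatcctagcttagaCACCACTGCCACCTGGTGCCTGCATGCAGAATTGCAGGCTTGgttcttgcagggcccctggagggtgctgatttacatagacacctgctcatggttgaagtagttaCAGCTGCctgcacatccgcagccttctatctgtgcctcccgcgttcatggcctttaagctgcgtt
The Celsr2 window had 65 bases in footprints of both replicates, and 1 match to the CTCF core, starting at base 91, lay wholly inside them. The Cdh13 window had 56 such bases, with a CTCF core from base 137 and an E-box CAGCTG from base 236 inside them. In the Pcdh10 window 53 bases were covered, part of them in a run of A, and its E-box CAGCTG lay outside. In the Cdh4 window 7 bases were covered, and they took in 3 of the 6 bases of a GC box.

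Over all 84 distal windows, the E-boxes CAGATG and CAGCTG were present in 23 each (27.4%), against 30.3% and 25.1% of the 23895 distal regions. AP-1 was present in 13 (15.5%), against 18.5%, and the CTCF core in 13 (15.5%), against 12.7%. None of these differences was tested.

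Beside the 84 shared regions, the loci held distal peaks seen in a single replicate, 64 of 149 in replicate 1 and 135 of 219 in replicate 2. Their median heights were 0.345 and 0.473. Over the genome, distal peaks without a partner had medians of 0.451 and 0.486, and those with one had 0.889 and 0.817. The single-replicate peaks of replicate 2 lay mostly inside the genes, 123 of 135, and mainly in the long ones: Cdh13 had 17, Cdh12 had 16, and Pcdh9 and Pcdh15 had 15 each. Of the 64 in replicate 1, 20 lay inside the genes. Most of the other 44 came from 2 upstream flanks. At Cdh26, 20 peaks lay at positions -13.4 to -3.55 kb from the 5′-most TSS, 13 of them inside the neighbouring gene Fam217b. At Cdh16, 12 peaks lay at -13.9 to -9.15 kb. The 12 peaks upstream of Cdh16 had heights of 0.0691 to 0.229. Over the genome, 28.9% of the distal peaks of replicate 1 and 51.9% of those of replicate 2 had no partner in the other replicate.

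**Figure D5:**
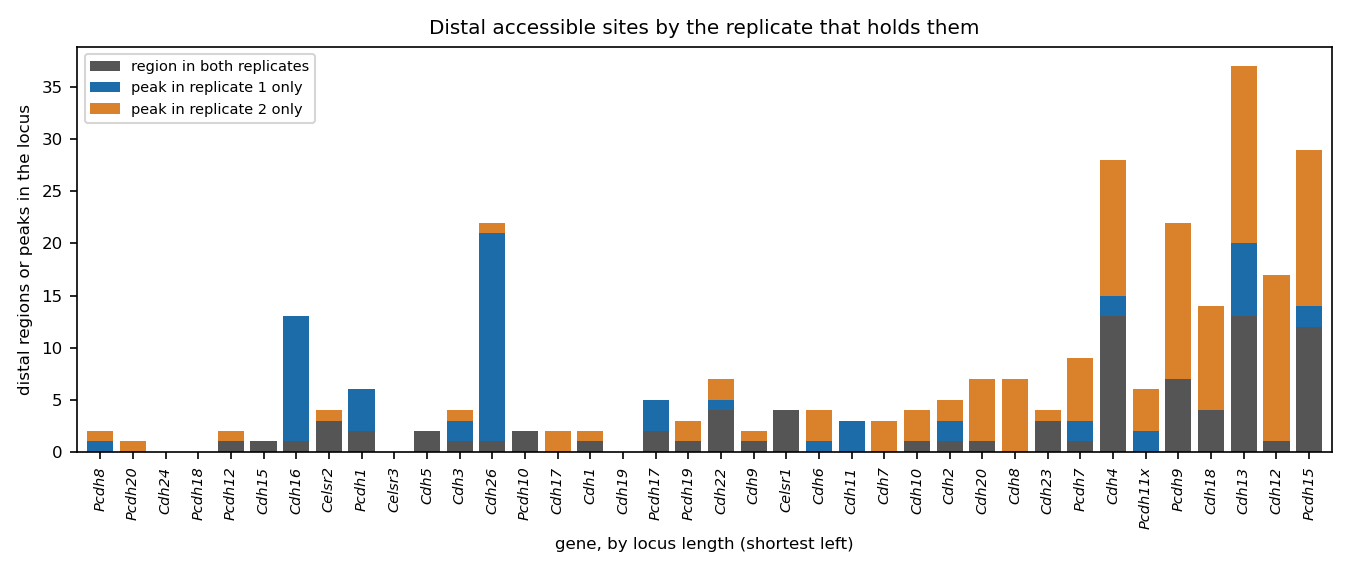
Distal sites in each of the 38 loci, ordered by locus length, as regions shared by both replicates (grey) and as peaks of replicate 1 only (blue) or replicate 2 only (orange). Peaks of replicate 2 only fill the long loci on the right, such as Cdh12 with 16, and the peaks of replicate 1 only stand mainly at Cdh26 (20) and Cdh16 (12).

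The cytoplasmic and functional partners of cadherins were described from 40 genes in 7 lists, of which 26 were accessible, beside 56.2% of all protein-coding genes. All 11 catenins and junction linkers were open, with a median height of 4.13, against 1.43 for the cadherin genes themselves and 2.80 for all accessible genes. Jup (plakoglobin) was the tallest, with 10.1 in replicate 1 and 7.39 in replicate 2, followed by Vcl (vinculin) with 7.76 and 5.49, and Ctnnb1 (beta-catenin) had 6.26 and 2.73. The alpha-catenins Ctnna3 and Ctnna2 held 11 distal regions each and Ctnnd2 held 10, against a mean of 4.51 in their bin of locus length. The rest of this list held 0 to 4, with 0 at the alpha-catenin Ctnna1. Promoter heights were 7.58 and 4.82 for Ctnna3 and 5.97 and 3.40 for Ctnna2. All 3 calsyntenins, which are cadherin-related proteins of synapses, were open.

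Of 5 desmosome genes, Pkp2 was accessible, at 0.872 and 0.594, and Dsg2 had a peak in replicate 1 only. Of 6 partners of Cdh23 and Pcdh15 in hair cells, Myo7a (2.13 and 0.979) and Tmie (0.958 and 0.527) were accessible, Lhfpl5 had a peak in replicate 1 only, and Ush1c, Ush1g and Tmc1 had no promoter peak. Of the 6 Fat and Dachsous genes, which encode the giant cadherins, Fat1 (2.97 and 1.80) and Fat3 (0.937 and 0.790) were accessible. Among the planar polarity partners of the Celsr proteins, Fzd3, Vangl2, Prickle1 and Prickle2 were accessible, and Fzd6 and Vangl1 had a peak in replicate 1 only.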

How the data were processed

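DNase-seq of left cerebral cortex (2 biological replicates, 1 group) was read from the files the authors deposited on mm10. The deposited peak lists give peak height as a signal, called per replicate from its own alignment per the file notes. Heights are whole multiples of 0.00432 in replicate 1 and 0.00675 in replicate 2. The deposited p-value track lists false discovery rates under 0.05, and the other deposited lists give footprints as positions with a constant value. The aligner, the callers and the height scaling are unstated there. Depth is unknown.

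Nothing in the notes separates the paired peak lists by role, so the shorter list was used and the longer one was an alternative. Overlapping intervals of a list were joined at their highest height, and peaks of both replicates that overlapped by 1 bp or more were merged into shared regions. Genes came from GENCODE M21 and sequence from GRCm38.p6, whose chromosome lengths held all peaks (21 of 21 chromosomes). Windows, bins, motifs and expectations were computed in Python 3.11.15 with numpy 2.4.6, pandas 2.3.3 and pysam 0.24.0, and the counting steps were tested on simulated data. Alternatives changed the peak list, window, overlap, distance, flank and height limit, and left out each replicate. Named were all 38 genes, the 10 tallest distal regions and the genes with most distal regions. The members and lists were chosen with earlier results of these data known. The values of 1 partner list are not reported here. Set tests and p-values were not used, as there is no contrast between groups.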

Additional observations from a re-analysis of the deposited data

How the results depend on the processing

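Of 51 recomputed values, 9 moved, all of them on distal regions. To count as unmoved, counts had to stay within 1.5 times the reported value, and heights and means within 1 SD between the replicates. The counts of genes with an accessible promoter, with a promoter footprint or with a distal region were each 26 of 38. No rise in these counts could pass 1.5 times, so only a fall could be labelled as moved. The SD for the median height came from the same replicates that were left out in turn, so it was a weak check of that step. The longer peak lists gave 182 shared distal regions in cadherin loci, a mean of 4.79 per locus, and the taller 50% of each list gave 31, a mean of 0.816, in 17 loci. Leaving out a replicate gave 149 to 219 distal peaks, a mean of 3.92 to 5.76, in 30 to 33 loci. The same step gave 26 to 31 accessible cadherin promoters, 12529 to 13503 accessible genes, a median height of 1.07 to 1.67, and 26 to 31 promoters with a footprint. Accessible cadherin promoters numbered 23 with 250 bp windows (without Cdh11, Celsr2 and Pcdh20), beside 54.5% of all genes, and 21 in the taller 50% of the peaks, beside 50.3%. Shared distal regions numbered 65 to 117 with other distances and flanks, in 19 to 29 loci, and their mean without Cdh4, Cdh13 and Pcdh15 was 1.31, against 2.21 with them. Over all genes the mean of distal regions moved too, to 1.80 with the longer lists and 0.514 in the taller 50%. No paired analysis was possible because there is 1 group. Depth is unknown, so a missing peak is not shown to be a closed site.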
